A study of Mus musculus with 4 samples.

Results

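Cells with markers of nasal respiratory epithelium were taken from single-cell RNA profiles of the whole nose of mouse embryos at embryonic day 14.5. A cell was a member when it had at least 1 transcript (counted as a unique molecular identifier, UMI) of the epithelial adhesion molecule Epcam, at least 3 UMIs of the simple keratins Krt8 and Krt18 together, and UMIs of at least 2 of the 6 identity genes Olfm5, Cbr2, Ehf, Six3, Lypd2 and Serpinb11. Cells with any UMI of Otx2 or Sult1e1, taken as marks of olfactory epithelium, or of Krt7 or Upk1b, taken as marks of the surface layer called periderm, were left out. The members were thus chosen by the UMI counts of these 13 genes. They were 67 of the 13739 cells kept, each with 500 or more detected genes and no more than 10% of UMIs from mitochondrial genes.

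The series compared 2 control libraries with 2 mutant libraries, and the labels' protocol speaks of 2 noses in each group. Controls have the strain C57Bl/6J and the word WT in their sample labels, while the design text describes their genotype as yap flox/flox;taz flox/flox, so whether the controls carried the floxed alleles is not settled by the sources used here. Mutants are labelled Tg(Sox10-cre)1Wdr with Yapflox and Tazflox, and the design text gives Sox10cre;yap flox/WT;taz flox/flox, which leaves 1 unfloxed Yap allele. The Cre recombinase of this transgene is driven by regulatory sequence of Sox10, a gene of neural crest cells and their glia, so epithelial cells were not the named target of the deletion. Yap1 and Wwtr1 (the gene of TAZ) encode the transcriptional co-activators that the Hippo kinases restrain.

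Respiratory epithelium lines the non-olfactory part of the nasal cavity and cleans and moistens the air. It holds basal cells, which express Trp63 and Krt5 and renew the layer, secretory cells, which release antimicrobial proteins of the mucus, and multiciliated cells, whose beating cilia move that mucus. A cell that turns multiciliated leaves the cell cycle, switches on Mcidas, Ccno and Myb, multiplies its centrioles through Deup1, and then builds motile cilia under Foxj1 and the RFX factors.

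The 4 libraries held 2827 to 4846 barcodes, against 10000 cells per sample that the protocol aimed for, and 20170229 to 35887490 UMIs in all. Members were deeper than the average cell, with a median of 11665, 8756.5, 15852 and 6694.5 UMIs in control 1, control 2, mutant 1 and mutant 2, beside 7033, 6878.5, 8549 and 5282 in all kept cells. Control 2 stood apart in its epithelium: it held 50 cells that passed the Epcam and keratin thresholds, against 156 to 197 in the other libraries, and 8 members with 72098 UMIs in all. The other libraries had 25 (control 1), 14 (mutant 1) and 20 (mutant 2) members, with 169721 to 367188 UMIs. Every value of control 2 therefore rests on few cells, and the medians of gene lists are given with their range when 1 library was left out and the filter on low counts applied anew. Over the 6 pairs of libraries, 34 cell barcodes occurred in both libraries of a pair, and none of them belonged to a member. Noses were dissociated with papain and collagenase and frozen before capture, and the protocol names a pair of sequencing providers but not the one used for each library, so provider and genotype cannot be told apart. The labels do not say whether the libraries came from separate litters, so the p-values measure the spread between these 4 libraries only.

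The gate was narrow. Of 585 cells with the Epcam and keratin levels of the gate, 383 had at least 2 identity markers, and 316 of these were set aside because they also had a UMI of Otx2, Sult1e1, Krt7 or Upk1b. Of the 316, 97 had only the Otx2 or Sult1e1 pair, 94 only the Krt7 or Upk1b pair and 125 both, and 65 were set aside by a single UMI. Among the members, 24 had exactly 2 identity markers, 12 had 3, 12 had 4, 12 had 5 and 7 had all 6. On the other side of the threshold, 21 cells passed every other condition with 1 marker. In the cells with 1 marker, Olfm5 and Lypd2 were at 0, and Krt5 and Krt14 stood at 485 and 631 CPM (counts per 1e+06 UMIs, summed over the cells of a set), against 229 and 306 in all members.

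**Figure D1:**
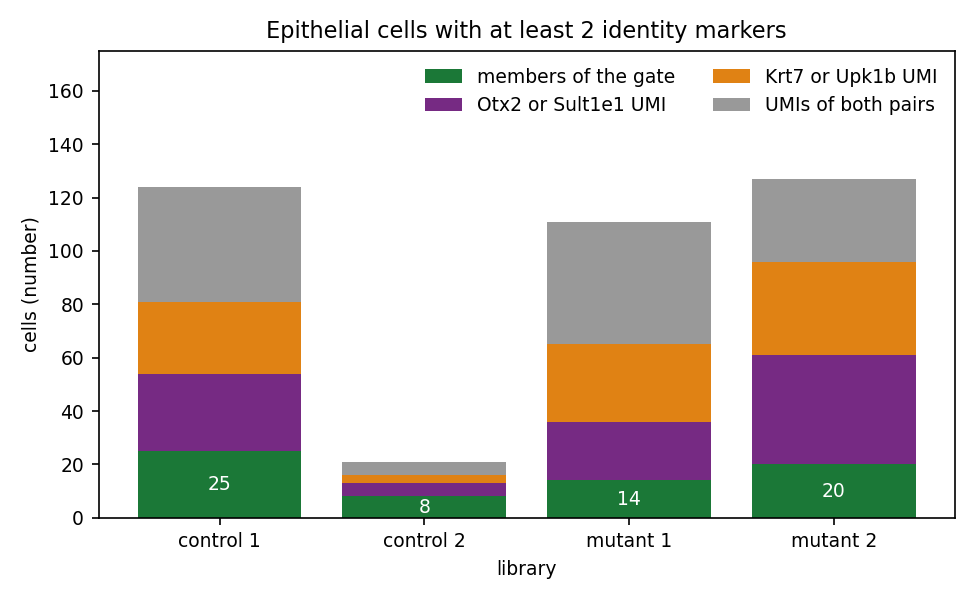
Number of cells per library (vertical axis) that passed the Epcam and keratin thresholds with at least 2 identity markers, split by which excluding transcripts they also had. Members (green, 25, 8, 14 and 20 cells) were the smaller part of these cells in each library, and control 2 had the fewest cells of each kind.

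The genes that chose the members are given as a description only. Olfm5, an olfactomedin-family gene, was at 520, 55.5, 1405 and 884 CPM in the members of control 1, control 2, mutant 1 and mutant 2, and 22 of the 67 members had a UMI of it. Cbr2, a carbonyl reductase, stood at 283, 236, 583 and 495 CPM in the same order and was found in 39 members. Six3, a homeobox factor of the anterior head, was the most widespread of the 6, in 59 members at 210, 236, 256 and 330 CPM. Ehf, an ETS-family factor of epithelia, was at 144, 166, 180 and 171 CPM in 48 members, the most even of the 6 across libraries. Lypd2 was at 139, 97.1, 298 and 183 CPM, and the serpin Serpinb11 at 106, 13.9, 164 and 359 CPM. Epcam lay between 891 and 986 CPM in the 4 libraries. Olfm5 and Serpinb11 were low in control 2, with 4 and 1 UMIs there. As to the label, the levels of these genes were set by the gate and say nothing of it. Of 30 secreted mucosal products 14 had no UMI in the members, and most cells rich in Bpifa1 fell outside the gate. Summed, these products stood at 667, 569, 3339 and 784 CPM in the members against 140, 31.2, 289 and 212 CPM in all other kept cells. In mutant 1 a single member held 608 of the 652 Bpifa1 UMIs. Other epithelial cells had similar levels. Over the 4 libraries together the products were at 1434 CPM in the members and 1549 CPM in epithelial cells with a Krt7 or Upk1b UMI. Epithelial cells with an Otx2 or Sult1e1 UMI had 1012 CPM. Markers of stratified keratinocytes stood at 1579 CPM in the members and 768 CPM in all other kept cells. In cells rich in Krt5, Krt14 and Krt15, a set drawn by genes of that list, they stood at 6153 CPM. The members are therefore best called by the gate itself: Epcam and keratin positive cells with UMIs of at least 2 of the 6 identity genes and none of Otx2, Sult1e1, Krt7 or Upk1b.

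Outside the 13 genes of the gate, the 20 genes with the largest fold over all other kept cells were Dapl1, Krt19, Lgi2, F3, Six3os1, Wfdc2, Cldn7, Cdkn1a, Foxa1, Fxyd3, Arhgef38, Elf3, Tst, Spint2, Gm16136, Cebpb, Smim22, Ezr, Nlrp4e and Ttc6. Membership was set on these same cells, so the folds carry no test. Dapl1 led, at 291, 194, 218 and 289 CPM against 19.1, 6.09, 17.8 and 16.7 CPM in the other cells of the same libraries, a 10.5-fold difference with 10 CPM added to both sides. Krt19, a keratin of simple epithelia, followed at 332, 194, 210 and 572 CPM (9.05-fold). Several leading genes belong to the working parts of a lining epithelium. Wfdc2, a secreted antiprotease of airway mucus, was at 419, 458, 373 and 607 CPM and had UMIs in 57 members. Cldn7, a tight junction claudin, was at 172, 430, 268 and 442 CPM. Spint2, an inhibitor of membrane-bound serine proteases, was in 66 of 67 members at 433, 333, 562 and 572 CPM. Ezr, which ties the apical membrane to actin, was at 240, 250, 390 and 348 CPM. Among transcription factors, Foxa1 was at 57.2, 41.6, 96.5 and 118 CPM, Elf3 at 54.5, 83.2, 109 and 177 CPM, and Cebpb at 324, 610, 633 and 442 CPM. Foxa1 and Elf3 had UMIs in 32 and 31 members, so they were far from general. Six3os1 (163, 208, 193 and 153 CPM) lies opposite Six3, a gene of the gate, and Gm16136 opposite Grhl2. The sources used here do not say whether counting used the strand, so the 2 cannot be separated from their partners with certainty.

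**Figure D2:**
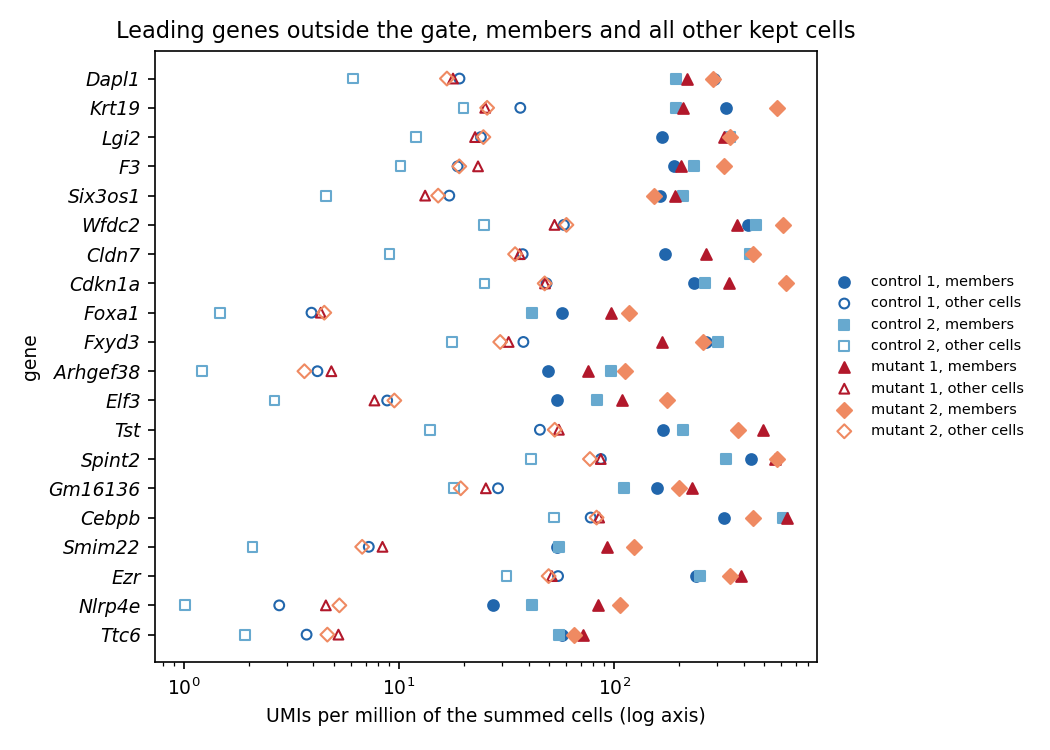
Level of the 20 leading genes (vertical axis) in CPM on a log axis, filled symbols for the summed members of a library and open symbols for all other kept cells of that library. For each gene the 4 member values lie to the right of the 4 values of the other cells.

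Beside other epithelial cells the leading genes were less set apart. Epithelial cells that carried a Krt7 or Upk1b UMI had 700 CPM of Krt19, against 334 CPM in the members, and 399 CPM of Cdkn1a against 347. Those that carried an Otx2 or Sult1e1 UMI had 379 CPM of Cldn7 against 275 and 435 CPM of Wfdc2 against 447. Members were higher than both of these sets in Dapl1 (262 CPM against 78.5 with Otx2 or Sult1e1 and 137 with Krt7 or Upk1b), in Lgi2 (262 against 73.4 and 163), in Six3os1 (173 against 83.3 and 95.9) and in Cebpb (459 against 161 and 347). These comparisons are between sets drawn by the gate's own genes and have no test.

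Secreted products were few. Of 30 genes of mucosal secretion, 14 had no UMI in any member, among them the club cell and mucus genes Scgb1a1, Scgb3a2, Muc5b, Bpifb1 and Dmbt1. Bpifa1, an abundant antimicrobial protein of nasal fluid that the gate did not use, had UMIs in 3 members: 1 in control 1, none in control 2, 2 in mutant 1 and none in mutant 2. A single mutant 1 member held 608 of its 656 UMIs (92.7%). The gate left most Bpifa1-rich cells out: of 52 kept cells with at least 10 Bpifa1 UMIs, 51 had the epithelial and identity markers of the gate and 2 were members. Reg3g, a lectin that kills Gram-positive bacteria, was at 2.72, 69.3, 83.9 and 64.8 CPM and had UMIs in 11 members. Detoxifying enzymes were more widespread. Gstm1, a glutathione transferase, was at 583, 27.7, 1208 and 901 CPM in 33 members, and Gsta4, which clears lipid aldehydes, at 324, 41.6, 348 and 477 CPM in 57 members, with control 2 the lowest for both. The summed level of 18 genes of ion and water transport was 441, 416, 495 and 554 CPM, close to even. Cftr, the chloride channel mutated in cystic fibrosis, had UMIs in 14 members at 8.39 to 41.2 CPM.

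The members were not of 1 kind, and the split below was drawn after their values were seen, as a description. Of 24 multiciliated genes listed, 23 were in the files and 22 had UMIs in members, 1084 UMIs in all. In 7 members, 12 to 21 of these genes had UMIs, and these 7 cells held 959 of the 1084 UMIs (88.5%). No other member had more than 4 of the genes or 12 of their UMIs, so nothing lay between. The 7 cells were 2 of control 1, 0 of control 2, 2 of mutant 1 and 3 of mutant 2. Their content of the 23 genes was 117 and 84 UMIs in control 1, 448 and 21 in mutant 1, and 155, 89 and 45 in mutant 2, in cells of 8687 to 32875 UMIs. Each had at most 1 UMI of the basal genes Trp63, Krt5, Krt14 and Krt15. Drawn by counts alone, at 10 or more UMIs of the list, the set gained 2 deep control 1 members with 12 and 10 UMIs from 3 and 2 of the genes, which also had 17 and 112 basal UMIs.

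Basal genes marked another set. With the same line of 10 UMIs for Trp63, Krt5, Krt14 and Krt15 together, 19 members were basal-rich and not multiciliated-rich (8, 4, 3 and 4 by library), 9 were multiciliated-rich (4, 0, 2 and 3) and 39 were neither (13, 4, 9 and 13). Close to the line, at 5 to 14 UMIs, lay 7 members for the multiciliated and 11 for the basal genes. Levels of the genes that drew a set follow from the line itself. In the 19 basal-rich members Krt15, Krt14, Krt5 and Trp63 were at 1373, 795, 625 and 204 CPM, against 32.5, 55.8, 23.2 and 20.9 CPM in the 39 members rich in neither. Several identity, secretory and enzyme genes were highest in those 39: Olfm5 was at 1530 CPM there and at 17.0 CPM in the basal-rich members, Gstm1 at 1502 and 21.3, Cebpb at 635 and 332, Elf3 at 165 and 25.5, and Reg3g at 67.4 and 34. Other genes of these kinds were not. Serpinb11 was highest in the multiciliated-rich members, at 390 CPM against 46.8 (basal-rich) and 135 (neither), and Cbr2 was at 462, 268 and 458 CPM in the same order. In that order the enzyme genes Gsta4, Gsto1 and Cyp2f2 were at 440, 251 and 342, at 154, 123 and 37.2, and at 54.9, 111 and 41.8 CPM. Of the secretory genes, Agr2 was at 82.4, 21.3 and 13.9 CPM and Wfdc2 was nearly even at 412, 404 and 486 CPM. In the 9 multiciliated-rich members Dynlrb2, a dynein light chain of cilia, was at 791 CPM, Deup1 at 451, the filament protein Tekt1 at 445, Foxj1 at 368, Myb at 352, Mcidas at 302 and Ccno at 286 CPM. Cdkn1a, an inhibitor of the cell cycle, was at 1000 CPM in these 9 cells, at 217 in the basal-rich members and at 142 in the remaining 39. Genes of dividing cells did not move as one: Mki67 was at 22, 128 and 119 CPM in the same order, whereas Cdk1, the kinase that drives mitosis, was at 302, 115 and 160 CPM, with UMIs in 8 of the 9 multiciliated-rich members. All 9 had at least 10 UMIs of the proliferation list, as did 42 of the 67 members.

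**Figure D3:**
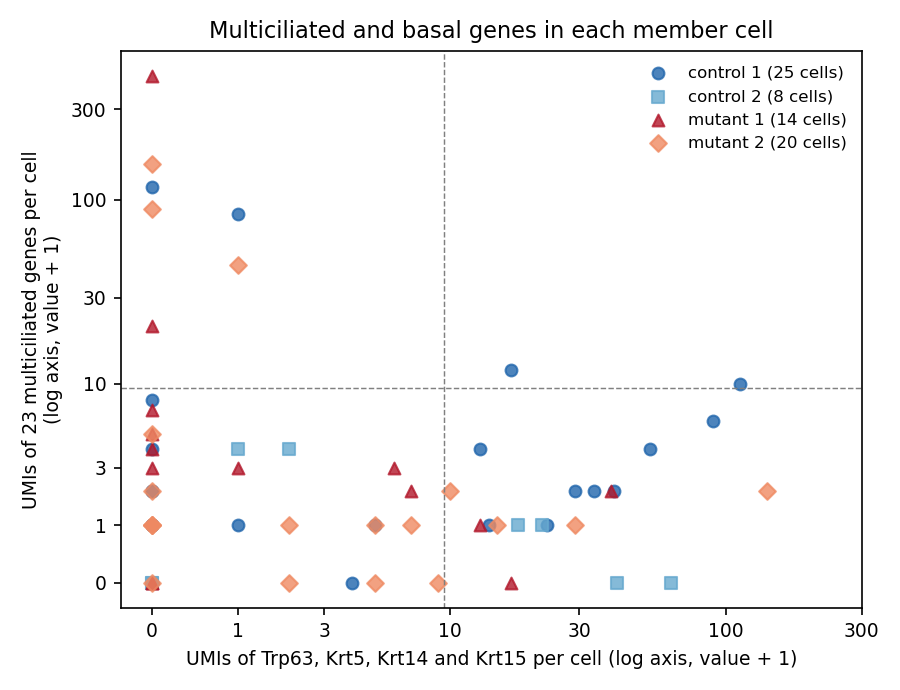
Each point is a member cell: UMIs of 4 basal genes on the horizontal axis and of 23 multiciliated genes on the vertical axis, both on log axes after adding 1, with dashed lines at the boundary of 10 UMIs. Cells with 21 or more multiciliated UMIs have at most 1 basal UMI, and control 2 (squares) has none of them.

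Because most genes of the multiciliated list appeared together in the same few cells, the promoters of the list were read for the sequence that RFX factors recognise. The search was for GTTGCC on either strand (GGCAAC when read on the other), the core of the X-box, in the 250 bases before each RefSeq gene start of GRCm38.p6. Of 32851 promoters 10.4% held it, and of the 26 promoters of the 20 listed genes that RefSeq matched by symbol 10 did (38.5%), 1 each for Ccdc153, Ccno, Cdhr3, Deup1, Dynlrb2, Fam183b, Mcidas, Pifo, Rfx2 and Tekt1. Cdhr3 had no UMI in the members. The promoters of 4 of them are shown with the match in capitals, 5′ to 3′ on the gene's own strand, since these genes led the multiciliated-rich members or start the programme. Deup1 is at chr9:15627847-15628096, minus strand, Tekt1 at chr11:72361883-72362132, minus strand, Dynlrb2 at chr8:116504765-116505014, plus strand, and Mcidas at chr13:112993618-112993867, plus strand.
Deup1 promoter: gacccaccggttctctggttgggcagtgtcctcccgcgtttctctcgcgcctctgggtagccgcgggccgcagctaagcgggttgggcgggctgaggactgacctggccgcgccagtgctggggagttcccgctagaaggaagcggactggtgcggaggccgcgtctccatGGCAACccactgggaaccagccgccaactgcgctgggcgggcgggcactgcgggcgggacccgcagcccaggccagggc
Tekt1 promoter: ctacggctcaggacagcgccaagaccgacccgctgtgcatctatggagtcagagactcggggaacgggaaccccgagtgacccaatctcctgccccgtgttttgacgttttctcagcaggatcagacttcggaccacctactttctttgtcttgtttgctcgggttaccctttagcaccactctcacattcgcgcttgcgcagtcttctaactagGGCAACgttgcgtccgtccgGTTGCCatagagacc
Dynlrb2 promoter: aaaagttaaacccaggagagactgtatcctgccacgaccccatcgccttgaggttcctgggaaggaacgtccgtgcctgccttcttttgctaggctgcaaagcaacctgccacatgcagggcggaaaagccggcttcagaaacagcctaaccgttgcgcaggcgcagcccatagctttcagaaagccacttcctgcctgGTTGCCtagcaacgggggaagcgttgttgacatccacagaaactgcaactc
Mcidas promoter: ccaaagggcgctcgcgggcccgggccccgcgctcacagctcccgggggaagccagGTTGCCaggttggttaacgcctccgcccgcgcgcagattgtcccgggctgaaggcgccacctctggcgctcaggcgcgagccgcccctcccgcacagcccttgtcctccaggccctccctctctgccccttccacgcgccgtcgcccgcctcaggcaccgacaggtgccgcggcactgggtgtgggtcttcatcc
In Deup1 the match began 79 bases before the gene start, in Dynlrb2 51 bases and in Mcidas 195 bases. Tekt1 had matches beginning 35 and 15 bases before its start, on opposite strands. A match is a string of letters and not a measured binding site.

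Ccno, Mcidas and Cdc20b lie together in 103 kb of chromosome 13 (chr13:112987802-113091195), and all had most of their UMIs in the same cells. Cdc20b, a gene used by cells that multiply their centrioles, was at 670 CPM in the 9 multiciliated-rich members and at 0 in the other members. Inside Cdc20b lie microRNAs of the miR-449 family, known from multiciliated cells, whose mature forms share the seed in capitals (bases 2 to 8). They are printed because they share this host gene; the assay reads polyadenylated RNA and did not measure the mature microRNAs, at chr13:113036008-113036028 and chr13:113037549-113037570 of GRCm38.p6.
mmu-miR-449c-5p: aGGCAGUGcauugcuagcugg
mmu-miR-449a-5p: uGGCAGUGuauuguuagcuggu

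The share of members among kept cells did not separate the genotypes. It was 0.613% in control 1 (exact 95% binomial interval 0.397 to 0.904, counting error only), 0.323% in control 2 (0.140 to 0.636), 0.467% in mutant 1 (0.256 to 0.783) and 0.477% in mutant 2 (0.291 to 0.735). Both mutant values lay between the control values, and the mean difference was 0.00367 percentage points (exact two-sided permutation test, p = 1.00, where 2 against 2 libraries cannot go below 0.33). Taken over the cells with the Epcam and keratin levels of the gate, the share was 12.7% and 16% in the controls and 8.97% and 11% in the mutants, a mean difference (mutant minus control) of -4.36 points with no overlap (exact p = 0.33). Membership moved with depth: when each cell was first thinned to 3000 UMIs, 74 cells passed the gate and 26 of them were members of the full gate, which is 35.1% of the thinned and 38.8% of the full set. Shares by the thinned gate were 0.604%, 0.174%, 0.790% and 0.685%, a ratio of mutants to controls of 1.90 (exact p = 0.33).

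For 6 genes outside the gate the share of members with a UMI was compared between genotypes (exact permutation tests, adjusted p = 1.00 for each of the 6). With 2 against 2 libraries the p cannot go below 0.33, so none of the 6 could pass and the shares are a description. Each member was thinned to 3000 UMIs for these shares, and none was too shallow to keep. Reg3g had UMIs in 1 of 25, 1 of 8, 3 of 14 and 4 of 20 members (unthinned 1, 2, 3 and 5), a mean of 20.7% in mutants and 8.25% in controls (exact p = 0.33). Krt5 had UMIs in 5, 4, 1 and 2 members (unthinned 9, 4, 4 and 5), 26.4 points lower in mutants (exact p = 0.33). Foxj1 had UMIs in 2, 0, 1 and 3 members (unthinned 2, 0, 3 and 3), and 0 of 8 in control 2 allows a share of up to 37.5%. Trp63 had UMIs in 7, 0, 3 and 1 members (unthinned 8, 3, 3 and 2) and Mki67 in 3, 1, 1 and 3 (unthinned 11, 2, 5 and 4). Bpifa1 stood at 1, 0, 2 and 0 with or without thinning. In cells rich in the macrophage genes C1qa, C1qb and C1qc, of median depth 7414 to 10314 UMIs, the thinned share over 191 cells was 0 for Reg3g, Krt5 and Foxj1 and 0.524% for Bpifa1 and for Trp63, which gives the background of free RNA. Mki67 was at 20.9% there, above the 11.9% of the members.

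The targeted genes did not pass a test of genotype in the members. Yap1 was at 73.5 and 41.6 CPM in control 1 and control 2 and at 54.5 and 64.8 CPM in mutant 1 and mutant 2, a log2 difference (mutant minus control) of -0.16 ± 0.45 (SE; edgeR quasi-likelihood test, adjusted p = 0.978). Wwtr1 was at 57.2 and 27.7 CPM against 37.8 and 53.0 CPM (-0.20 ± 0.51, adjusted p = 0.978). The groups overlapped for both genes, and reads at the end of a transcript need not fall in a deleted part. Sox10, whose regulatory sequence drives the Cre, had 4 UMIs in 2 control 1 members and 0 in the other libraries. Eif3l and Polr2f, neighbours of Sox10 on chromosome 15, stood at 112 and 55.5 against 143 and 230 CPM and at 242 and 208 against 415 and 436 CPM, with adjusted p of 0.621 and 0.293. Of the 10 genes listed at this locus 4 were tested, all 4 had both mutants above both controls (background 20.1%), 3 had an unadjusted p under 0.05 on the higher side (background 4.46%), and the median log2 difference was 1.04 (1.00 to 1.71 with 1 library left out, the highest without control 1). These counts describe the 4 genes that passed the filter on low counts. Of the 3, 1700088E04Rik was at 209 CPM in the 9 multiciliated-rich members, 8.50 in the basal-rich members and 18.6 in the rest. In that order Polr2f was at 357, 289 and 335 CPM, Eif3l at 170, 123 and 135 CPM, and Ankrd54, also listed, at 132, 12.8 and 18.6 CPM. The part of the multiciliated-rich members in this result was not tested. Summed over the list, the level was 460 and 374 against 763 and 907 CPM in members. It was 370 and 352 against 655 and 633 CPM in all other kept cells, and 255 and 326 against 520 and 428 CPM in the macrophage-gene cells named above, with the mutants above the controls in each of these cell sets.

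Between the genotypes, 1 of 3946 genes tested within members passed an adjusted p of 0.05 (0.0253%), Hsp90aa1. This gene (chr12:110690605-110702728, mm10) encodes the stress-inducible form of the chaperone HSP90. Control members had 923 and 666 CPM of it and mutant members 2139 and 2015 CPM, 794 ± 182 against 2077 ± 87.8 (SD, n = 2 each). The mutants lay above both controls, with a log2 difference of 1.33 ± 0.18 (SE) and an adjusted p of 0.0482 by edgeR's quasi-likelihood test. At an unadjusted p under 0.05 stood 294 genes (7.45%), of which 176 were higher (4.46%) and 118 lower (2.99%) in mutants. Libraries did not overlap for 792 genes with mutants above (20.1%) and 749 with mutants below (19%). The median log2 difference of all genes tested was -0.02.

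Hsp90aa1 followed the multiciliated genes cell by cell. In the 7 members with at least 10 multiciliated genes it made up 35.4 and 43.7 of 10000 UMIs in control 1, 107 and 23 in mutant 1, and 66.0, 48.6 and 28.7 in mutant 2, so these control cells lay within the range of the mutant cells. In the other 60 members its median was 6.10 and its highest value 19.2 of 10000 UMIs. Summed over the 9 multiciliated-rich members, Hsp90aa1 was at 1465 CPM in control 1, 8926 CPM in mutant 1 and 4969 CPM in mutant 2. The 4 such cells of control 1 include the 2 deep members with few of the list's genes. Whether the level in these cells differed by genotype was not tested. Outside the 9 multiciliated-rich members its level was 742 and 666 CPM (controls) against 706 and 840 CPM (mutants). Without those 9 cells the log2 difference was 0.12 (adjusted p = 1.00), and 0 of 3035 genes passed, with 107 at an unadjusted p under 0.05. A single mutant 1 cell held 351 of the 1239 Hsp90aa1 UMIs (28.3%). The call was also lost without control 2 (log2 difference 1.15, adjusted p = 0.628), without mutant 1 (1.33, adjusted p = 0.965), and with the gate read on thinned cells (0.12, adjusted p = 1.00). With no exclusion by Otx2, Sult1e1, Krt7 or Upk1b the log2 difference was 0.33 (edgeR adjusted p = 0.9997). With DESeq2 the call stood, at 1.39 and an adjusted p of 0.000774. Over all alternatives the adjusted p ran from 7.14e-14, with the replicate number as a block, to 1.00.

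**Figure D4:**
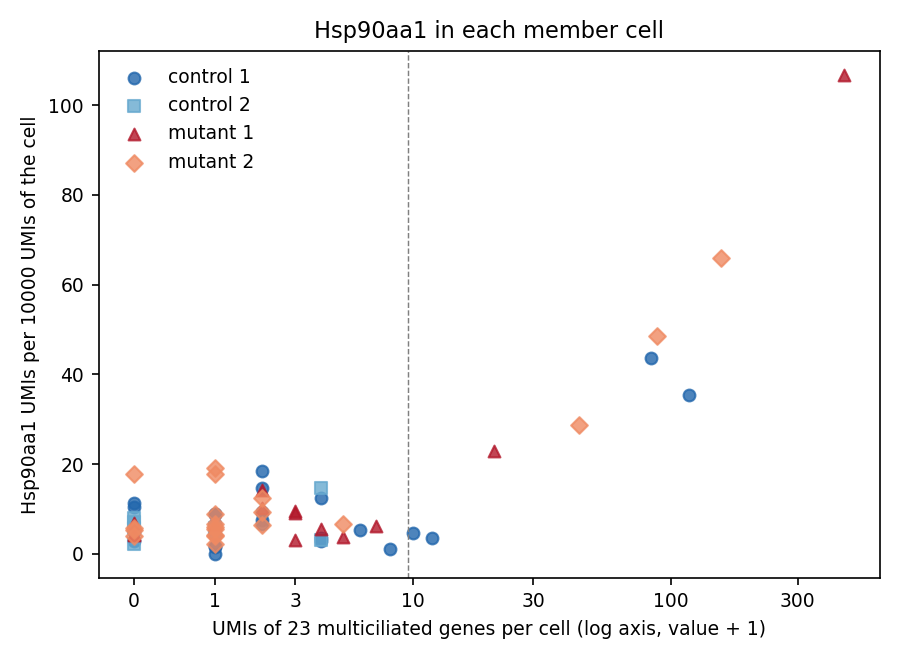
Hsp90aa1 UMIs per 10000 UMIs of each member cell (vertical axis) against its UMIs of 23 multiciliated genes (horizontal log axis after adding 1), with a dashed line at the boundary of 10. Cells with 21 or more multiciliated UMIs have 23 to 107 of 10000, and all others stay at or below 19.2.

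No other gene passed. The next on the higher side was Nudc, a co-chaperone of HSP90 that also acts on dynein, at 223 and 208 CPM in controls against 596 and 601 CPM in mutants (log2 1.44 ± 0.23, adjusted p = 0.0961). Outside the 9 multiciliated-rich members Nudc was at 160 and 208 against 168 and 165 CPM. Cdc20b was at 51.7 and 0 against 252 and 253 CPM (2.59 ± 0.46, adjusted p = 0.0961), from 2, 0, 2 and 3 cells by library, and Gpx8 and 4930563N14Rik overlap it on the other strand. S100a6, a calcium-binding protein, was at 59.9 and 69.3 against 411 and 200 CPM (adjusted p = 0.0961), with 57.2% of its UMIs in 1 cell. Cntn5, a neural adhesion molecule, was at 19.1 and 0 against 130 and 159 CPM (adjusted p = 0.0961).

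On the lower side the 5 genes of smallest p did not pass either. Tenm2, a teneurin of the cell surface, was at 261 and 194 CPM in controls against 46.1 and 70.7 in mutants (-2.08 ± 0.35, adjusted p = 0.0961), with UMIs in 33 members. Krt5, the basal cell keratin, was at 338 and 319 against 83.9 and 159 CPM (-1.50 ± 0.32, adjusted p = 0.156). Krtdap, a secreted protein of differentiating keratinocytes, was at 158 and 374 against 29.4 and 41.2 CPM (adjusted p = 0.114). Antxr1, a receptor that binds collagen, was at 68.1 and 83.2 against 8.39 and 5.89 CPM (adjusted p = 0.176). Csmd1 was at 106 and 97.1 against 12.6 and 0 CPM (adjusted p = 0.108), with 75.5% of its UMIs in 1 cell.

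**Figure D5:**
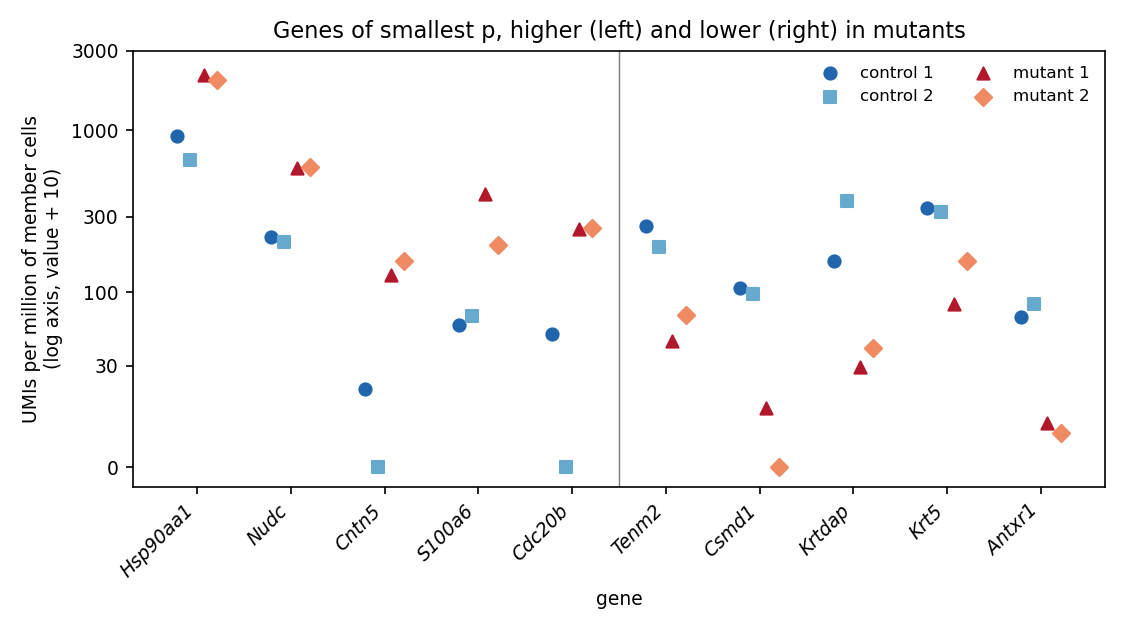
Level of the 5 genes of smallest p higher in mutants (left) and lower in mutants (right), in CPM of the summed members on a log axis after adding 10, with 1 symbol for each library. The mutant and control symbols do not overlap for any of the 10 genes, which were chosen for that, and only Hsp90aa1 passed the test.

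The multiciliated genes were higher in the mutant sums without passing the test. Of the 23 genes measured, 14 passed the filter on low counts, 10 of these had an unadjusted p under 0.05 on the higher side (background 4.46%), and 13 had both mutants above both controls (background 20.1%). Their median log2 difference was 1.96 beside -0.02 for all genes. A gene found in so few cells passes the filter mainly through the libraries where it is high, so these counts describe the 14 and not the list. Summed over the list, the level was 724, 139, 2093 and 1821 CPM. In epithelial cells with a Krt7 or Upk1b UMI it was 878, 38.4, 1180 and 848 CPM. Those with an Otx2 or Sult1e1 UMI had 207, 275, 273 and 178 CPM, and the genotypes overlapped in both sets. With no exclusion by Otx2, Sult1e1, Krt7 or Upk1b the log2 difference of Cdc20b moved from 2.59 to 0.56. Deup1 was at 35.4 and 0 against 151 and 194 CPM (adjusted p = 0.149), Dynlrb2 at 95.3 and 0 against 315 and 206 CPM (adjusted p = 0.284), and Tekt1 at 46.3 and 0 against 164 and 153 CPM (adjusted p = 0.201). Myb was at 19.1 and 0 against 164 and 118 CPM (adjusted p = 0.0961). Rfx3, which many cells with a single primary cilium also express, had UMIs in 45 members and was at 133 and 69.3 against 126 and 141 CPM. Without the 9 multiciliated-rich members the median was 0.35. Those 9 were drawn by the UMIs of this same list and held 90.5% of them, so the fall is no separate evidence. The gate read on thinned cells gave -0.33. Without control 2, which had none of these cells, the median was 1.90. Without control 1, which held every control cell of this kind, it was 7.0, fitted against a library where most of these genes were at 0, so that it depends on the prior count and is no measure of size. Cells with the programme numbered 2 in the controls and 5 in the mutants, and more such cells and more RNA per cell cannot be told apart in the sums.

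Basal genes stood lower in the mutant sums, again with no gene past the threshold. Of 17 listed genes 9 were tested, 6 of them had an unadjusted p under 0.05 on the lower side (background 2.99%) and 6 had both mutants below both controls (background 19%), with a median log2 difference of -1.27 (-1.44 to -0.86 with 1 library left out). A gene of low count can pass the filter mainly through the libraries where it is high. The counts and medians of this list and of those below therefore describe the genes tested and not the whole list. Trp63, the factor that defines basal cells, was at 177 and 83.2 against 37.8 and 53.0 CPM (adjusted p = 0.239). Krt14 was at 335 and 888 against 143 and 224 CPM (adjusted p = 0.277), and Krt17 at 430 and 985 against 348 and 424 CPM (adjusted p = 0.658). The libraries overlapped for Krt15, at 340 and 763 against 83.9 and 890 CPM. The median was -0.57 without the multiciliated-rich members and 0.14 with the gate read on thinned cells, where Krt5 reversed to 0.59. Beside them stood the stratified keratinocyte genes, which share Krt5, Krt14 and Krt15 with the basal list. Of the 10 keratinocyte genes 5 were tested, and 3 had an unadjusted p under 0.05 on the lower side (background 2.99%). Their median was -1.50, between -1.99 (without mutant 2) and -0.92 (without control 2) with 1 library left out. Summed levels were 1691 and 3260 CPM (controls) against 667 and 1903 CPM (mutants). The part of skin-type keratinocytes in the basal result was not tested.

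Among transcription factors of epithelia and placodes 18 of 42 were tested. Of these, 2 had an unadjusted p under 0.05 on the higher side (background 4.46%) and 1 on the lower (background 2.99%). So few genes do not set the list apart from all genes tested. The median was 0.19 (0.67 without control 1, 0.08 without control 2 and 0.12 without mutant 2). Elf3 was at 54.5 and 83.2 against 109 and 177 CPM (adjusted p = 0.493) and Foxa1 at 57.2 and 41.6 against 96.5 and 118 CPM (adjusted p = 0.621). Barx2 was at 84.4 and 55.5 against 8.39 and 23.6 CPM (adjusted p = 0.263). Eya2, the member of this list with the highest level outside the gate, was even at 259 and 333 against 268 and 271 CPM. Junction genes, with Cdh1 (E-cadherin) at 199 and 277 against 143 and 295 CPM, had a median of -0.08 over 13 tested, which lay between -0.17 (without mutant 2) and 0.25 (without mutant 1) and was above 0 without either control.

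Of 22 target genes of YAP and TAZ, 8 were tested. None passed, 4 had an unadjusted p under 0.05 on the lower side (background 2.99%) and the median log2 difference was -0.76. Ccn1, a matricellular protein and a classic target, was at 308 and 319 against 143 and 183 CPM, in 48 members (-0.96 ± 0.27, adjusted p = 0.293). Crim1 was at 123 and 97.1 against 46.1 and 64.8 CPM and Igfbp3 at 106 and 319 against 88.1 and 58.9 CPM, with adjusted p of 0.541 and 0.642. F3 (tissue factor), also a target and a leading gene of the members, was at 191 and 236 against 206 and 324 CPM. Ankrd1 and Foxf2 were at 0. By the cell groups above, Ccn1 was at 404 CPM in basal-rich members, 98.9 in multiciliated-rich members and 205 in the rest. In that order Igfbp3 was at 170, 98.9 and 81.4 CPM, Crim1 at 111, 137 and 53.5 CPM and Tgfb2 at 63.8, 54.9 and 83.7 CPM. Basal-rich members were 8 of 25 and 4 of 8 in the controls, and 3 of 14 and 4 of 20 in the mutants. The part of this mix in the median was not tested. Over the alternatives that left out a library the list's median lay between -0.98 (without mutant 2) and -0.46 (without control 2), and with the gate read on thinned cells it was 0.12. Among genes of the Hippo pathway itself, 10 of 21 were tested with a median of -0.15 (-0.28 without control 2 and -0.02 without control 1). Tead1, the DNA-binding partner of highest level, was at 139 and 194 against 197 and 194 CPM, and Amotl1, a scaffold that holds YAP in the cytoplasm, at 81.7 and 180 against 29.4 and 47.1 CPM (adjusted p = 0.457).

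Signalling pathways gave no passing gene, and few of their genes were tested. In the Notch pathway, which sets the balance of secretory and multiciliated fates, Hes1 was at 738 and 2219 against 671 and 848 CPM (adjusted p = 0.656) and Notch2 at 150 and 83.2 against 71.3 and 64.8 CPM (adjusted p = 0.619), with a median of -0.70 over 5 tested and -0.09 without control 2. The FGF receptor Fgfr2 was at 335 and 277 against 164 and 224 CPM (adjusted p = 0.541), and the 4 FGF genes tested had a median of -0.72 (-0.45 without mutant 1). Sfrp1, a secreted Wnt inhibitor, was at 180 and 166 against 487 and 295 CPM (adjusted p = 0.239). Smo, the hedgehog signal transducer, was at 84.4 and 111 against 41.9 and 35.4 CPM (adjusted p = 0.527). The 8 BMP genes tested had a median of -0.35, which was -0.74 without control 1 and -0.05 without control 2, and Id1, their response gene of highest level, was at 460 and 1082 against 482 and 701 CPM. Retinoic acid genes had a median of 0.00 over 6 tested (0.48 without control 1 and -0.03 without mutant 1), with Crabp2 at 458 and 596 against 537 and 377 CPM. Proliferation genes had a median of 0.45 over 15 tested, which was 1.51 without control 1, 0.29 without control 2 and 0.27 without mutant 1, and Hmgb2 was at 1367 and 1124 against 1346 and 1196 CPM. Beside Hsp90aa1, the 20 heat shock and immediate early genes had a median of 0.33, which turned to -0.07 without control 1 and was 0.50 without control 2, 0.57 without mutant 1 and 0.12 without mutant 2, with Hspa8 at 1122 and 874 against 1330 and 1502 CPM (adjusted p = 0.557) and Fos at 771 and 1678 against 1225 and 1438 CPM.

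Of the markers of other cell types, those of stratified keratinocytes and periderm stood above the level of all other kept cells: over all members they summed to 1579 and 332 CPM, against 768 and 74.1 CPM. Markers of immune cells were nearly absent, with 7 of 8 at 0 in all members and the eighth at 1.18 CPM. Mesenchyme genes summed to 466, 97.1, 587 and 177 CPM against 5698 to 6993 CPM in all other kept cells, and 11 members had at least 10 such UMIs. Neuronal genes summed to 185, 0, 12.6 and 29.5 CPM, and 1 control 1 member held 61 of their 76 UMIs. Blood genes were at 0, 0, 8.39 and 5.89 CPM. Doublet scores placed 5 members among the top-scoring barcodes of their libraries. Without them 0 genes passed by edgeR, with 302 at an unadjusted p under 0.05. Without the 4 members that had at least 3 collagen UMIs, or without the 1 neuronal-rich member, 0 genes passed too, with 279 and 289 at that p. The part of such cells in the results was not tested further.

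Whether members differed between genotypes in another way than the other 518 cells with the Epcam and keratin levels of the gate was asked by a test of the difference itself. Of 8329 genes 7 passed (0.084%). Hsp90aa1 was among them: the other epithelial cells had 1066 and 748 CPM of it (controls) against 1108 and 1059 CPM (mutants), and the log2 difference of members exceeded theirs by 1.15 ± 0.18 (SE, edgeR adjusted p = 0.00327). Without the multiciliated-rich members, and with the other epithelial cells left as they were, that excess was -0.09. S100a6 was higher by 3.30 ± 0.42 (adjusted p = 0.000158), since it was at 351 and 251 against 150 and 179 CPM in the other epithelial cells while in members the mutants were higher. The other 5 genes, Fstl5, Myt1l, Cntn4, Kcnd2 and Lingo2, are known from neurons, and 136 of their 222 member UMIs (61.3%) came from the neuronal-rich control 1 cell. Without that cell 3 genes passed.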

How the data were processed

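Whole-nose cells were profiled with 10x 3′ v3.1 chemistry, per the labels' protocols. The authors deposited UMI counts per gene and barcode. Cell Ranger 8.0.1 is named per the file headers, while the submitters' processing notes name Cell Ranger 4, Seurat 4.3.0 and mm10. Gene positions are from GENCODE for that build. Cells of 500 or more genes and 10% or less mitochondrial UMIs entered the gate described above. Automatic doublet calls by Scrublet (in scanpy 1.11.5) marked 1, 2, 0 and 0 barcodes and were not used; an alternative removed the highest scores, 0.8% for each 1000 cells. Raw counts of members were summed per library and tested with edgeR 4.0.16 (quasi-likelihood test, TMM, filterByExpr, Benjamini-Hochberg over all genes tested); the difference between cell sets added library and cell set terms. DESeq2 1.42.0 was an alternative. CPM are counts per 1e+06 UMIs of the summed cells. The tests were run on simulated data first. Shares used exact permutation tests over libraries, and their binomial intervals and limits cover counting error only. Other alternatives changed scaling, filter, gate, thinning, or left out a library.

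The members and the 32 gene lists were chosen with earlier results of these data known. Named genes were, by rule, the genes of the gate, the 20 with the largest fold over other kept cells (10 CPM added, detected in at least 20% of members in each library), the passing genes or else the 5 of smallest p in each direction whose libraries do not overlap, those of highest level in each list, Yap1, Wwtr1, Sox10, Bpifa1 and Reg3g, and the passing genes of the difference between cell sets. Names beyond it (Cdc20b's neighbours, list genes at an unadjusted p under 0.05, Mki67, Cdk1 and identity, secretory and enzyme genes by cell group) were chosen after their values were seen. The protocol counts 5 samples; 4 were analysed here. Same-numbered libraries are not tied by the labels, and the 2 pairs are too few to show a tie.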

Additional observations from a re-analysis of the deposited data

Results flagged for a closer look

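For 7 genes the genotype difference in members differed from that in other Epcam and keratin positive cells by a direct test (edgeR, adjusted p under 0.05). Hsp90aa1 differed by 1.15 on the log2 scale, and by -0.09 when the 9 multiciliated-rich members were left out. S100a6 differed by 3.30, with 20 members holding its UMIs and 57.2% of them in 1 cell; without the multiciliated-rich members the value was 2.27 (adjusted p = 0.184).

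Fstl5 differed by -11.33, Myt1l by -11.24 and Lingo2 by -10.08. Members of both mutant libraries had 0 UMIs of these genes, so the fitted values depend on the prior count and give no bound on a fold. In control 1 members they had 52, 45 and 32 UMIs, and in control 2 members 0. Fstl5 and Myt1l each came from 1 cell, the neuronal-rich control 1 member, drawn by 10 or more UMIs of the neuronal list. Without it their values were -1.07 and -1.18. No member then had a UMI of either gene, so these values also depend on the prior count and measure nothing in members. Cntn4 differed by -4.21, with 35 of its 43 member UMIs in 1 cell, and by -1.00 without that member. Kcnd2 differed by -3.96, at 112 and 69.3 CPM in control members against 0 and 23.6 CPM in mutant members, with 9 cells holding its UMIs.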

How the results depend on the processing

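The member share differed by 0.00367 points; it was -0.0257 at 5% mitochondrial UMIs or fewer, -0.0164 with the highest doublet scores removed, -0.0043 with Krt8 plus Krt18 of at least 1, -0.00518 without collagen-rich members, -0.0164 without multiciliated-rich members, -4.36 over epithelial cells, and -0.141 to 0.149 with 1 library left out, where it was -0.141 without control 2 and -0.000984 without mutant 2. Of the shares of members with a UMI, Trp63 reversed with at least 3 markers (1.67 points), and Foxj1 and Mki67 when 2 UMIs were required (-0.429 and 9.07). With 1 library left out Bpifa1 ranged from -2.00 (without mutant 1) to 12.3, Trp63 from -14.8 to 13.2 (without control 1; 7.43 without mutant 2) and Mki67 from -5.11 to 2.75 (without mutant 1).

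The count of 1 gene within members became 90 with no filter, 16 at 5% mitochondrial UMIs or fewer and 3 with Krt8 plus Krt18 of at least 1. It was 0 with at least 3 markers, the thinned gate, doublets removed, no exclusion, or without collagen-, multiciliated- or neuronal-rich members. Leaving out 1 library gave 0 to 61 (56 without control 1, 61 without mutant 2, 0 without control 2 or mutant 1); where edgeR gave 0, 107 to 482 genes had an unadjusted p under 0.05, and the lone library of a group is assumed to vary like the others. With the replicate number as a block it was 73; same-numbered libraries deviated together at r = 0.0569 over 3482 genes, so the numbers are not taken as a pairing. The count of 7 for the difference between cell sets became 2 with DESeq2, 44 with no filter, 30 with doublets removed, 20 without multiciliated-rich members, 3 without the neuronal-rich member, 43 against all other kept cells, and 23 to 53 with 1 library left out. Except where the construction shows it, the cause was not tested.

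Reversed single genes were Nudc without multiciliated-rich members (-0.073), Cntn5 (-0.050), Cdc20b (-0.51) and Krt5 (0.59) with the thinned gate, and Csmd1 with no exclusion (0.28). Yap1 reversed with DESeq2 (0.015) and without multiciliated-rich members (0.039), and ranged from -0.34 to 0.51 with 1 library left out (0.51 without control 1, 0.019 without mutant 1). Wwtr1 reversed with DESeq2 (0.037), the thinned gate (0.22) and no exclusion (0.073). In the difference between cell sets, Hsp90aa1 reversed without multiciliated-rich members (-0.086), and Cntn4 ranged from -4.64 to 2.27 with 1 library left out (2.27 without control 1). Settings on collagen, multiciliated and neuronal genes and on the exclusion were chosen after seeing the data. Depth limits what 67 cells can show: 847411 UMIs in all, 72098 of them in control 2.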
